A study of Mus musculus with 6 samples.

Results

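The transcripts of 8 glycolytic genes were followed in RNA recovered with tagged ribosomes and in Input RNA of the same brain region: Aldoa, Tpi1, Gapdh, Pgk1, Eno2 and Pkm, which encode enzymes of the lower part of glycolysis, and Ldha and Ldhb, which encode the subunits of lactate dehydrogenase. They were chosen by gene symbol, and 8 of the 8 had a row among the 5538 genes of the deposited table. Mice of the C57BL/6 strain carried CreER driven by the Fos promoter and a Cre-dependent eGFP-L10a reporter, a ribosomal protein fused to a fluorescent tag, and the perioculomotor (pIII) region of the midbrain was dissected. Both groups share this genotype and the protocol of 6 hr of sleep deprivation (SD), 3 hr of recovery sleep (RS) and an injection of 4-OHT, the drug that activates CreER, before one or the other phase; the series text names neurons labelled in RS, and the labels of single libraries do not say when the drug was given. The groups are IP, the RNA pulled down with antibodies against eGFP (3 libraries), and Input, taken to be the unselected tissue RNA (3 libraries), and each repeat pooled 4 to 5 mice. The tag marks any cell in which the Fos promoter was active while the drug was present, and not one defined cell type. The sources used here give neither age nor sex of the mice.

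Glycolysis splits glucose into pyruvate and yields ATP and NADH in the cytosol. Lactate dehydrogenase, a tetramer of A and B subunits encoded by Ldha and Ldhb, interconverts pyruvate and lactate and so sets the cytosolic balance of NADH. In brain, enzymes rich in the A subunit are usually linked to lactate-producing cells such as astrocytes and enzymes rich in the B subunit to neurons, and Eno2 and Aldoc are textbook markers of neurons and astrocytes among the glycolytic genes.

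The libraries differed in the level of their median gene before any single gene was considered. Values are TPM, a length-scaled abundance: they are corrected for transcript length and keep no read depth, so the depth behind each value is unknown. The median gene stood between 27.7 and 56.5 TPM in IP and between 31.1 and 67.2 TPM in Input, lowest in IP 1 and Input 3. The sum of all listed TPM differed little, from 855954 in Input 3 to 885495 in IP 3. The libraries thus differed in how TPM was spread over genes more than in their total. All values in the table are at or above 7 TPM, so a gene under that level in any library has no row. Of the listed markers, cholinergic (5 of 6), pan-neuronal (11 of 11) and astrocyte (6 of 11) genes had a row. The astrocyte genes Aqp4, Slc1a2, Slc1a3, Aldh1l1 and Gja1 had none, for which a value under 7 TPM in a single library would be enough.

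Aldoa, Gapdh, Ldhb and Pkm were among the most abundant transcripts of the table. Over the 8 genes the rank ran from 4 (Aldoa in Input 1) to 640 (Pgk1 in Input 3) of 5538. The sum over the 8 genes was 9013, 14690 and 15077 TPM in the IP libraries 1 to 3 and 18107, 16630 and 6891 TPM in Inputs 1, 2 and 3, or between 0.81% and 2.06% of all listed TPM. IP 1 and Input 3 held the lowest values of all 8 genes. By mean TPM, Aldoa and Gapdh stood highest in IP and Input, at 3090 ± 997 and 2811 ± 640 TPM in IP (SD, n = 3) and 3639 ± 1703 and 2722 ± 1257 TPM in Input. Ldhb (2329 ± 373 in IP, 2121 ± 838 in Input) and Pkm (2107 ± 726 and 2188 ± 848) came next, followed by Tpi1 (1164 ± 250 and 1461 ± 713), Eno2 (788 ± 306 and 773 ± 275), Ldha (348 ± 141 and 625 ± 373) and Pgk1 (290 ± 67.7 and 346 ± 192). The order of Aldoa over Gapdh, of Ldhb over Pkm and of Ldha over Pgk1 held in 2 of the 3 IP libraries each, and that of Pkm over Ldhb in 2 of the 3 Input libraries, so within those groups these neighbours did not differ beyond the spread. In Input, Aldoa stood above Gapdh and Ldha above Pgk1 in 3 of 3 libraries. The remaining neighbours kept their order in 3 of 3 libraries of each group.

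**Figure D1:**
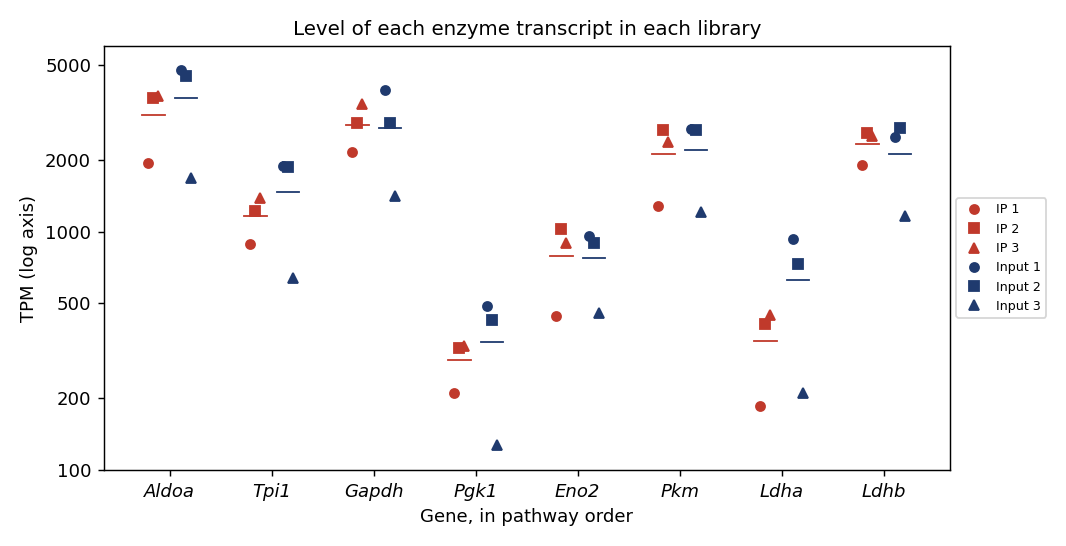
TPM on a log axis of the 8 genes in pathway order, drawn in red for IP and dark blue for Input; circle, square and triangle stand for replicates 1, 2 and 3, and a short line marks each group's mean. For every gene the circle of IP 1 and the dark triangle of Input 3 are the lowest points, and the IP and Input points overlap.

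Since the level of the median gene differed between libraries, log2(TPM + 1) was set against the median gene of the same library. The differences between IP and Input below are on that scale. Of the 8 genes, 7 lay higher in IP and Ldha lay lower. Their median log2 difference was 0.20, against 0.02 over all genes, and the difference was above 0 in 51.8% of all genes. This count and median depended on that centring and on Input 3. With no centring 3 of the 8 lay higher (median -0.05, all genes -0.23), and with quantile normalization 1 of the 8, Pgk1, did (median -0.30, all genes -0.03). On the centred scale without Input 3, Aldoa (-0.04), Pgk1 (-0.08) and Tpi1 (-0.11) lay lower as well as Ldha. The median was then 0.07 (all genes -0.01). Limma, fitted over all 5538 genes with Benjamini-Hochberg adjustment, called 0 of the 8 (0% of all genes higher and 0% lower), with a smallest adjusted p of 0.739 for Ldhb and 0.649 over all genes. At an unadjusted p of 0.05 it picked 0 of the 8, against 3.58% of all genes higher and 3.85% lower. In bulk RNA such as this, fewer cells of a type, less RNA per cell and a smaller share of that RNA on ribosomes cannot be told apart.

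The groups did not overlap on this scale in 3 of the 8 genes, Eno2, Pkm and Ldhb, each with all IP values above all Input values, against 6.93% of all genes in that direction. In none of the 8 did all IP values lie below all Input values, against 9.71% of all genes. In TPM as deposited, 0 of the 8 were separated in either direction (1.70% of all genes above, 6.21% below). The direction of Eno2, Pkm and Ldhb therefore rests on the scaling: with no centring the log2 differences were 0.01, -0.03 and 0.22, with quantile normalization -0.09, -0.40 and -0.05, and with libraries centred on the 1000 genes of highest mean TPM 0.16, 0.12 and 0.36.

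**Figure D2:**
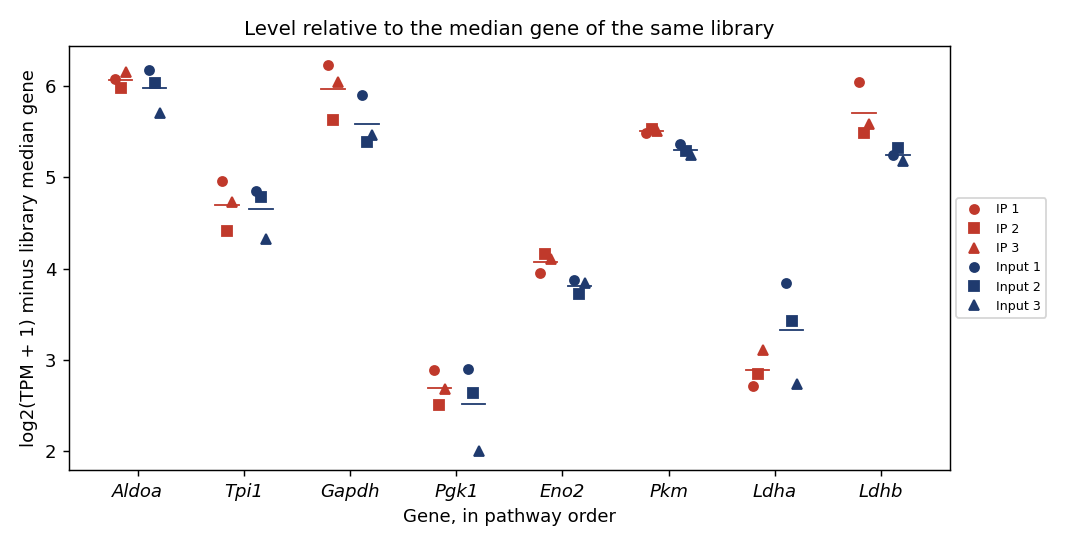
Log2(TPM + 1) minus the median gene of the same library for the 8 genes, colours and symbols for IP and Input replicates 1, 2 and 3, with a line at each group's mean. The red points of Eno2, Pkm and Ldhb all lie above the dark blue ones on this scale (their direction changes with quantile normalization, and that of Pkm also with no centring), while Ldha has Inputs 1 and 2 above all other points and Input 3 beside IP 1.

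Aldoa encodes aldolase A, which cleaves fructose bisphosphate into triose phosphates (mm10, chromosome 7, 126795234 to 126800751, minus strand). It had 1940, 3623 and 3708 TPM in IP and 4752, 4486 and 1678 TPM in Input. Inputs 1 and 2 lay above all IP libraries and Input 3 below them, and relative to the median gene the values lay close together, at 6.08, 5.98 and 6.16 in IP and 6.18, 6.04 and 5.71 in Input. The log2 difference was 0.09 (SE 0.36), and it changed sign with no centring (-0.15), with quantile normalization (-1.38) and without Input 3 (-0.04).

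Tpi1 encodes triosephosphate isomerase, which interconverts the triose phosphates (chromosome 6, 124810586 to 124814296, minus strand). It had 890, 1224 and 1379 TPM in IP and 1877, 1868 and 638 TPM in Input, which gave a centred log2 difference of 0.05 (SE 0.34). Without IP 1 it was -0.07 and without Input 3 it was -0.11. Tpi1 lies 40.9 kb from Eno2 and 347.4 kb from Gapdh on the same chromosome, and Ldhb is a further 17323.8 kb away.

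Gapdh encodes glyceraldehyde-phosphate dehydrogenase, the enzyme of the step that yields NADH and a common reference gene (chromosome 6, 125161715 to 125166467, minus strand). It had 2156, 2840 and 3435 TPM in IP and 3912, 2847 and 1408 TPM in Input, with a log2 difference of 0.39 (SE 0.38). The values of IP 2 and Input 2 were 2840.4 and 2847.25 TPM, and the groups overlapped. Gapdh has many processed copies in the mouse genome. Of the annotated pseudogenes, 143 matched its coding sequence at 90% identity or more over at least 50% of its length, against 8 for Ldha, 4 for Pkm, 2 each for Aldoa and Pgk1, 1 each for Ldhb and Tpi1, and 0 for Eno2.

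Gm7336 was the 1 pseudogene of this kind with a row in the table (chromosome 7, 51746647 to 51747878), and its aligned sequence was identical to Gapdh (100% over 1017 bases, 94.4% of the coding length). It had 930, 2723 and 2669 TPM in IP and 5301, 5577 and 45.5 TPM in Input. In Inputs 1 and 2 the copy thus had more TPM than Gapdh itself, and in Input 3 it had far less. The copy made up 30.1%, 48.9% and 43.7% of the sum of both in IP and 57.5%, 66.2% and 3.13% in Input. How reads divide between the 2 rows is unknown, since the aligned stretch does not tell them apart.

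The sum of Gapdh and Gm7336 was 3086, 5563 and 6104 TPM in IP and 9214, 8425 and 1453 TPM in Input. Relative to the median gene the sum stood at 6.75, 6.60 and 6.88 in IP and 7.14, 6.95 and 5.50 in Input, a log2 difference of 0.21. Without Input 3 the difference of Gapdh alone was 0.32 and that of the sum was -0.30. The direction read for Gapdh against these Inputs thus turned on whether the copy was added.

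**Figure D3:**
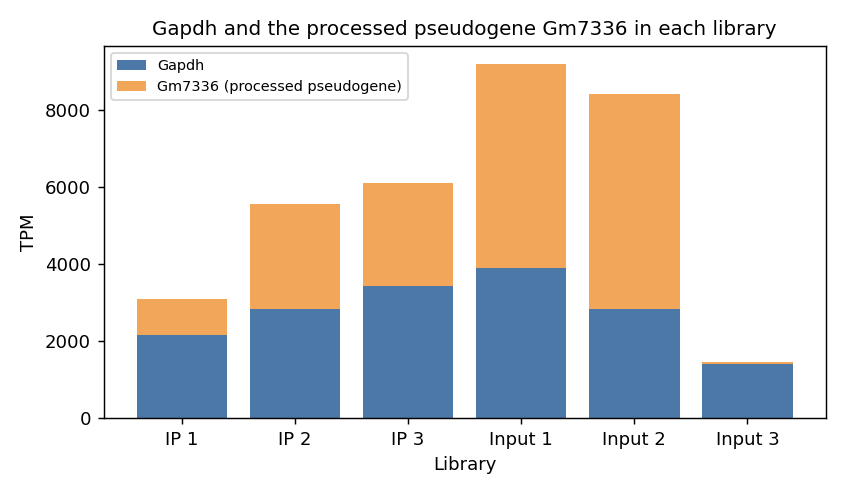
Stacked bars of TPM per library for Gapdh (blue) and the processed pseudogene Gm7336 (orange), from 0. The orange part is larger than the blue part in Inputs 1 and 2, at 5301 and 5577 TPM, and hardly visible in Input 3, at 45.5 TPM.

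Pgk1 encodes phosphoglycerate kinase, which makes the first ATP of the pathway (chromosome X, 106187100 to 106203699, plus strand). It had 212, 325 and 332 TPM in IP and 486, 425 and 127 TPM in Input. The centred log2 difference was 0.18 (SE 0.32), and Input 3 was the lowest library and Input 1 and IP 1 the highest, at 2.90 and 2.89. Without Input 3 the difference was -0.08.

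Eno2 encodes gamma enolase, known as neuron-specific enolase (chromosome 6, 124760053 to 124769673, minus strand). It had 442, 1024 and 898 TPM in IP and 962, 899 and 457 TPM in Input, and the TPM of the groups overlapped. Relative to the median gene it stood at 3.95, 4.16 and 4.11 in IP and at 3.88, 3.72 and 3.84 in Input, which differ by 0.26 (SE 0.28; limma adjusted p = 0.798). The lowest IP value was 3.95 and the highest Input value 3.88.

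Pkm encodes the muscle-type pyruvate kinase, whose splice forms serve neurons and glia to different extents and cannot be told apart in a table of gene totals (chromosome 9, 59656368 to 59679375, plus strand). It had 1286, 2663 and 2371 TPM in IP and 2693, 2662 and 1210 TPM in Input. Relative to the median gene the values were 5.49, 5.53 and 5.51 in IP and 5.37, 5.29 and 5.24 in Input, with an SD of 0.02 and 0.06. The log2 difference was 0.21 (SE 0.32; limma adjusted p = 0.848). The SE of the fit, which draws on the spread of genes of like level, was much wider than the spread of these 6 values.

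Ldha and Ldhb had differences of opposite sign, neither of which passed the test. Ldha (chromosome 7, 46841475 to 46855627, plus strand) had 186, 411 and 447 TPM in IP and 935, 729 and 211 TPM in Input. Inputs 1 and 2 were the highest, and Input 3 lay between IP 1 and IP 2. Relative to the median gene it stood at 2.71, 2.84 and 3.11 in IP and at 3.84, 3.42 and 2.73 in Input, which differ by -0.44 (SE 0.36; limma adjusted p = 0.754). The size rested on the Input libraries: without Input 3 the log2 difference was -0.75 (limma adjusted p = 0.318) and without Input 1 it was -0.19.

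Ldhb (chromosome 6, 142490249 to 142507957, minus strand) had 1900, 2580 and 2506 TPM in IP and 2489, 2713 and 1162 TPM in Input. Relative to the median gene it stood at 6.05, 5.49 and 5.59 in IP and at 5.25, 5.32 and 5.18 in Input, which differ by 0.46 (SE 0.35; limma adjusted p = 0.739). All IP values lay above all Input values on that scale. IP 1 was the highest, and without it the log2 difference was 0.29.

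The ratio of Ldha to Ldhb within a library does not change with that library's overall scale. It was 0.0979, 0.159 and 0.178 in IP and 0.376, 0.269 and 0.182 in Input. The highest IP value, 0.178, lay just under the lowest Input value, 0.182 in Input 3, so the groups did not overlap, by a narrow margin. The mean was 0.145 ± 0.0420 in IP and 0.275 ± 0.0972 in Input (SD, n = 3), and on the log2 scale the difference was -0.91, or 0.533 times as much Ldha per Ldhb in IP. An exact two-sided permutation test gave p = 0.1, the smallest value that 3 against 3 libraries allow. Across genes, the ratio to Ldhb had all IP values below all Input values in 31.9% and all above in 0.903%, so Ldha shared this direction with many genes of the table.

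As a share of both subunits, Ldha made up 8.9%, 13.8% and 15.1% in IP and 27.3%, 21.2% and 15.4% in Input, with means of 12.6 ± 3.26% and 21.3 ± 5.97%. Ldhb was the more abundant transcript in all 6 libraries, between 2.66 and 10.2 times Ldha. The sum of both was 2087, 2991 and 2953 TPM in IP and 3425, 3442 and 1373 TPM in Input, lower in IP 1 and Input 3 than in the other libraries. The ratio kept its sign with each library left out in turn, from -1.18 without Input 3 to -0.65 without IP 1 or Input 1, and was -0.91 without both IP 1 and Input 3.

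Against the other 7 enzymes of the same library, Ldha was the gene that differed most. Its log2 TPM minus their mean was -2.39, -1.97 and -1.87 in IP and -1.06, -1.32 and -1.81 in Input, a difference of -0.68. All IP values lay below all Input values, again narrowly at Input 3, and this was so in 13.9% of all genes set against the mean of the 8 (2.89% above). Among the other 7 the difference ran from -0.11 for Tpi1 to 0.36 for Ldhb, and none of them was separated in either direction. Since Ldhb is among the genes that Ldha was set against, this comparison is not independent of the Ldha to Ldhb ratio.

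The start regions of Ldha, Ldhb and Pgk1 are shown because the subunit genes differed in direction and Pgk1 is a well-known target of hypoxia-inducible factor. They are RefSeq sequences (build GRCm38.p6), each the 250 bases before the start site on the gene's own strand. Capitals mark ACGTG and GCGTG on either strand, the core letters of hypoxia response elements, of which ACGTG is also part of the E-box CACGTG.
Ldha, chr7:46845554-46845803, plus strand: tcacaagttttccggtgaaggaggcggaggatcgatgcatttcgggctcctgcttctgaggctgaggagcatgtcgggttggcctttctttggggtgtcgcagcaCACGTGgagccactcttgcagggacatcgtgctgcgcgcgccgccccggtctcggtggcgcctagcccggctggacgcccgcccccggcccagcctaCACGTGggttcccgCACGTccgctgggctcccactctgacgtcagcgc
Ldhb, chr6:142507958-142508207, minus strand: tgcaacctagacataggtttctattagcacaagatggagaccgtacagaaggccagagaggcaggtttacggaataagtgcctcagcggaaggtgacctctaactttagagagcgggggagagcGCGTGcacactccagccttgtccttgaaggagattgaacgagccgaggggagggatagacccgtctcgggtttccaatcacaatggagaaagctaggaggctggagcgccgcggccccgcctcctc
Pgk1, chrX:106186850-106187099, plus strand: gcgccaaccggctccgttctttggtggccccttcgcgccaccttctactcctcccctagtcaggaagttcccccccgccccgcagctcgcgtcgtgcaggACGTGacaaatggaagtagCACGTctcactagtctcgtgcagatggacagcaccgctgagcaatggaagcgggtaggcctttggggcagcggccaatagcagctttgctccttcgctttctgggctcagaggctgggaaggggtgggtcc
The Ldha window held 5 matches to ACGTG counted on each strand, where CACGTG is read on both, and 0 to GCGTG. The Ldhb window held 0 matches to ACGTG and 1 to GCGTG, and the Pgk1 window held 2 and 0. RefSeq gave 12 windows for the 8 genes, of which 8 held one motif or the other, against 38.6% of all 32851 windows of the same length (16.6% with ACGTG and 28.2% with GCGTG). The windows are not independent: those of Aldoa at chr7:126799179-126799428 and chr7:126799255-126799504 overlap and hold the same match. A second Ldha start (chr7:46846832-46847081) held 0 matches to ACGTG and 1 to GCGTG. These are matches of letters and were not measured as bound sites in these libraries.

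Other pairs of isoenzymes were set side by side, chosen after their values were seen and with no test. Aldoc, the aldolase of astrocytes, had 603, 1714 and 1794 TPM in IP and 2895, 3191 and 596 TPM in Input, and the ratio of Aldoa to Aldoc was 3.22, 2.11 and 2.07 in IP and 1.64, 1.41 and 2.82 in Input. Eno1, the ubiquitous enolase, had 834, 1817 and 1553 TPM in IP and 2338, 2260 and 859 TPM in Input, and the ratio of Eno2 to Eno1 was 0.530, 0.564 and 0.579 in IP and 0.412, 0.398 and 0.532 in Input. In both pairs all IP ratios lay above Inputs 1 and 2, and Input 3 lay inside the range of the IP libraries. The members of each pair are distinct in sequence, with 74.1% identity for Ldha and Ldhb, 77.8% for Aldoa and Aldoc and 76.9% for Eno2 and Eno1 over their aligned bases.

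**Figure D4:**
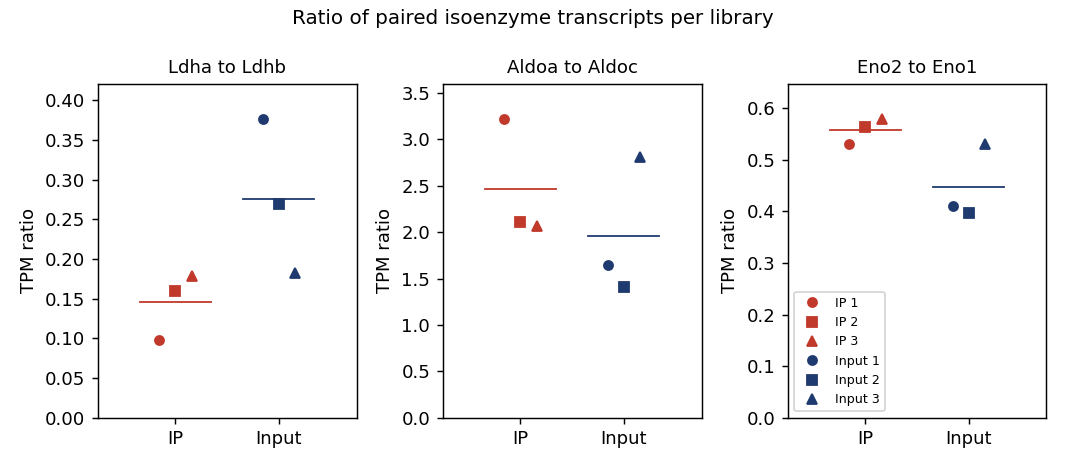
Ratio of TPM per library for Ldha to Ldhb, Aldoa to Aldoc and Eno2 to Eno1, each axis from 0, IP red and Input dark blue, with a line at each mean. For Ldha to Ldhb all IP points lie below the Input points, with Input 3 (0.182) next to IP 3 (0.178), and in the other panels Input 3 lies among the IP points.

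Markers of cell types also differed between libraries. Of the cholinergic and motor neuron list 5 of 6 were measured, at 14.9, 11.4 and 8.58 times the median gene in IP. They stood at 2.895, 4.05 and 10.5 times in Inputs 1, 2 and 3, with Input 3 inside the range of IP. Their median log2 difference was 1.28, with 5 of 5 higher in IP, and limma called 0. Of the astrocyte list 6 of 11 were measured, Aldoc among them, and their summed level was between 31.2 and 43.4 times the median gene in IP and 57.1, 60.2 and 26.6 times in Inputs 1, 2 and 3. Of the oligodendrocyte list 6 of 8 were measured, at 13.2, 51.7 and 87.1 times the median gene in IP and 63.9, 72.6 and 17.3 times in Input. The pan-neuronal list (11 of 11) stood at 170.8 to 188.1 times the median gene in IP and at 129.6, 137.3 and 179.7 times in Input. The neuronal sum was lower in Inputs 1 and 2 through the neurofilament genes Nefl and Nefm. Without them the other 9 genes summed to 101 to 108 times the median gene in IP and to 110, 108 and 127 times in Input. Of these, Syt1 (log2 -0.80), Map2 (-0.64), Snap25 (-0.34) and Stmn2 (-0.32) lay lower in IP. Thy1 (0.55), Tubb3 (0.41), Rbfox3 (0.24), Uchl1 (0.11) and Elavl4 (0.08) lay higher. Aldoc made up most of the astrocyte sum, with 2895 of 3673 TPM in Input 1 and 3191 of 4043 TPM in Input 2. Relative to the median gene, Aldoc, Ntsr2, Agt and Glul lay above all IP libraries in Inputs 1 and 2. In Input 3 they lay below all IP libraries. Gfap and S100b did not share this order: Gfap was highest in Input 3 and S100b in IP 1. The part of astrocytes, oligodendrocytes and neurons in the Ldha and Ldhb values was not tested.

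Of the other glycolytic enzymes 9 of 22 listed genes had a row, and limma called 0 higher and 0 lower. Of these 9, 5 lay higher in IP relative to the median gene, with a median log2 difference of 0.01, and 2 (Pfkp and Pfkl) had all IP values above all Input values, against 6.93% of all genes. For Pfkl the margin was minimal, with a lowest IP value of 1.803 and a highest Input value of 1.797 times the median gene. The subunits of phosphofructokinase, the main control point of glycolysis, had log2 differences of 0.41 for Pfkp (SE 0.26), 0.33 for Pfkm (SE 0.32; 0.13 without Input 3) and 0.12 for Pfkl (SE 0.21). Pfkp had 272 ± 119 TPM in IP and 231 ± 69.4 TPM in Input. Bpgm, which diverts a glycolytic intermediate to bisphosphoglycerate and is best known from red blood cells, had 31.1 ± 15.9 TPM in IP and 62.2 ± 38.4 TPM in Input (log2 -0.63, SE 0.35). The measured haemoglobin genes (Hba-a1 and Hbb-bs) summed to between 1.75 and 4.14 times the median gene in IP and to 5.68, 13.9 and 0.626 times in Inputs 1, 2 and 3, and their part in the Bpgm value was not tested. Hk1, Gpi1, Aldoc, Pgam1 and Eno1 had log2 differences of 0.05, 0.01, -0.28, -0.12 and -0.07.

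**Figure D5:**
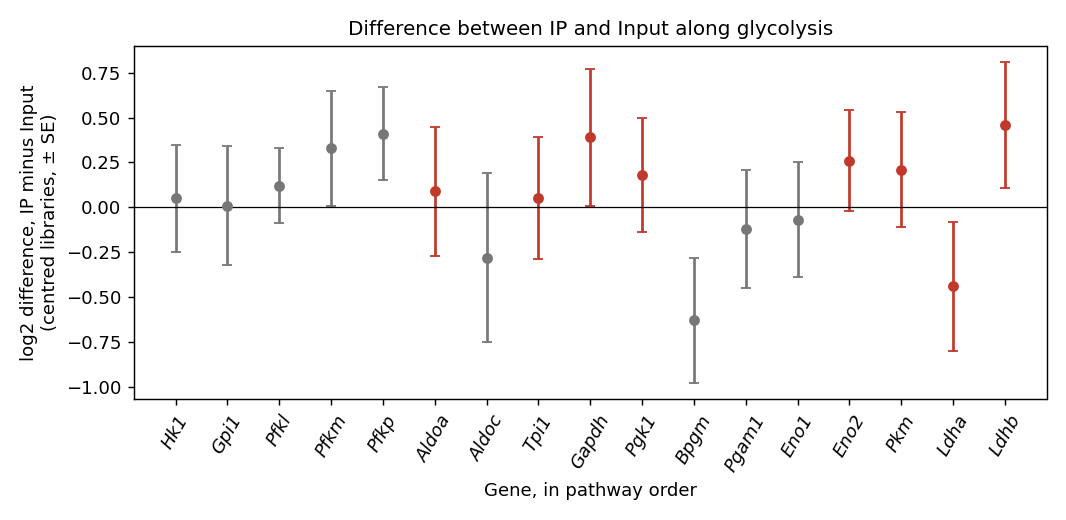
Log2 difference between IP and Input with its SE for the 17 measured glycolytic and lactate dehydrogenase genes in pathway order, with the 8 genes described here in red and the other 9 in grey. The lowest values are those of Bpgm (-0.63) and Ldha (-0.44) and the highest those of Ldhb (0.46) and Pfkp (0.41), and limma called 0 of them.

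Genes that supply or drain the pathway were called in 0 cases too. Of the glucose and lactate transport list 4 of 9 had a row: Slc2a3, the neuronal glucose transporter, had a log2 difference of -0.16, Slc2a1, that of the blood-brain barrier and glia, 0.38 and Bsg, the partner of the monocarboxylate transporters, -0.15. The value of Slc2a1 came from IP 2, with 113 TPM against 10.3 to 40.8 TPM in the other libraries, and was -0.33 without it. The endothelial gene Ly6c1, the 1 of 6 endothelial markers with a row, was highest in the same library, at 278 TPM, against 21.9 to 67.3 TPM elsewhere, and its part in the Slc2a1 value was not tested. The monocarboxylate transporters Slc16a1, Slc16a3 and Slc16a7, which carry lactate, had no row. Of the genes that set glycolytic flux only Vhl, which marks hypoxia-inducible factor for degradation, had a row (1 of 7), with 27.2 ± 11.9 TPM in IP and 44.9 ± 17.2 TPM in Input (log2 -0.49, SE 0.23).

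Past pyruvate, the list of pyruvate entry into mitochondria (11 of 14 measured) had a median log2 difference of -0.07. Pdk3, a kinase that turns pyruvate dehydrogenase off, Pdhx, a structural subunit of that complex, and Mpc2, a subunit of the mitochondrial pyruvate carrier, had 0.32, 0.24 and 0.24. NADH shuttle genes (8 of 11) had a median of 0.14, with Got2, the mitochondrial aspartate aminotransferase, at 0.72 (SE 0.39; 0.32 without Input 3), Mdh1, the cytosolic malate dehydrogenase, at 0.20 and Gpd1l, a relative of glycerol-phosphate dehydrogenase, at -0.44 (SE 0.23). Citric acid cycle genes (14 of 15) had a median of 0.11, and Dlst and Fh1, which encode a subunit of the oxoglutarate dehydrogenase complex and fumarase, stood at 0.66 and 0.50. Of these lists limma called 0 genes.

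Of the pentose phosphate list 5 of 8 had a row, with a median of -0.01: Pgls, the lactonase, had 0.77 (SE 0.45; 0.25 without IP 1), Taldo1, transaldolase, -0.35 and G6pdx, the entry enzyme, -0.40. Of the glycogen and gluconeogenesis list 7 of 16 had a row, with a median of 0.33. Its named members were Pck2, the mitochondrial phosphoenolpyruvate carboxykinase, at 0.59 with 27.5 ± 3.13 TPM in IP and 21.5 ± 1.78 TPM in Input, Gys1, glycogen synthase, at 0.43 and Ugp2, which makes UDP-glucose, at -0.60. Of the reference genes used in expression assays, among them Gapdh and Pgk1, 11 of 13 had a row, and their log2 differences ran from -0.84 for Ywhaz to 0.94 for Rplp0, with Hprt at -0.73 and Gusb at -0.47. Gapdh (0.39) and Pgk1 (0.18) lay inside that range, and limma called 0 of the 11.

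In log2(TPM + 1) as deposited the 8 genes followed each other over the 6 libraries, with Pearson r between 0.74 and 0.99 over the 28 pairs. These values also carry the differences in the median gene between libraries. After centring on the median gene r ran from -0.47 to 0.94 with a median of 0.515. Aldoa, Tpi1 and Pgk1 stayed close (r = 0.94 for Aldoa and Pgk1, 0.91 for Pgk1 and Tpi1, 0.82 for Aldoa and Tpi1), Pkm and Eno2 formed another pair (0.89), and Ldha and Ldhb gave the lowest value (-0.47). The genes whose centred values were most like the mean of the 8 over the 6 libraries, by Pearson r among 2606 named genes at or above the median level, were D10Jhu81e (r = 0.992), Ndufab1 (0.974), Ndufa12 (0.968), Mdh2 (0.966) and Nme1 (0.965). Those most like Ldha were Ctps2 (0.992), Actr8 (0.991) and Rwdd2a (0.986), and those most like Ldhb were Iscu (0.987), Atp5d (0.984) and Cyc1 (0.983). Ndufab1, Ndufa12, Atp5d and Cyc1 encode parts of the mitochondrial respiratory chain and ATP synthase. With 6 points chosen from so many genes, such values describe the libraries only.

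Without Input 3 limma called 0.289% of all genes higher and 0.0181% lower, with 0 of the 8 among them. Without both IP 1 and Input 3, the libraries that stand apart, limma called 187 genes higher (3.38% of all) and 160 lower (2.89%), with 0 of the 8 among them, and Ldha came closest (log2 -0.66, adjusted p = 0.107). With no centring in these 4 libraries it called 121 higher (2.18%) and 936 lower (16.9%), and among the lower ones were Ldha (log2 -0.94, adjusted p = 0.016) and Tpi1 (-0.53, adjusted p = 0.04), 2 of the 8. This last fit was chosen after the data were seen. Both fits without IP 1 and Input 3 drop the libraries of lowest median gene in these same data, so their counts are descriptions only.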

How the data were processed

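RNA of IP and Input libraries from pIII tissue was sequenced with Nextera libraries, per the labels. The authors deposited TPM per gene, per the file headers; RSEM, DESeq and the build mm10 are named in the submitters' processing notes without versions or roles, and no aligner is named in the sources used here. Here TPM were transformed to log2(TPM + 1) and the median gene of each library was subtracted. IP was compared with Input by limma 3.58.1 in R 4.3.3 (trended eBayes, group as the only term, Benjamini-Hochberg adjustment, threshold 0.05). The fit was tried on simulated data, where recovery of known differences was required only at a spread below that of these libraries. The Ldha to Ldhb ratio was tested by an exact permutation test in scipy 1.17.1. TPM keep no depth, so no counting interval or floor can be given.

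A replicate is a library from a pool of mice. Limma p-values draw on the spread between libraries of a group and on that of genes of like level. Whether an IP and an Input library share a pool is not stated. The members and lists were chosen with earlier results of these data known. Named genes are the 8 members, up to 3 genes per pathway list with the smallest limma p (1 such gene is not reported here), the genes most alike over libraries, and sequence copies of members; Aldoc, Eno1, Pfkl, Hk1, Gpi1, Pgam1, Rplp0 and the marker genes were added to complete their lists. Coordinates come from GENCODE M21 (mm10). Copies were found with blastn 2.17.0, with the longest coding sequence of each member against annotated transcripts. The opposite strand holds a gene overlapping Aldoa (Fam57b), Gapdh (Iffo1) and Tpi1 (Spsb2), and the sources used here do not say whether counting used strand. Alternatives were a pseudocount of 0.1, no centring, quantile normalization, a mean TPM of at least 20 and a block for the replicate number. Fits without single libraries, and without both IP 1 and Input 3, were also made. Centring on the 1000 highest genes and no centring without IP 1 and Input 3 were chosen after the data were seen.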

Additional observations from a re-analysis of the deposited data

How the results depend on the processing

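Limma called 17 genes without Input 3 (16 higher, 1 lower), 347 without both IP 1 and Input 3, and 1057 with no centring as well; over the other leave-one-out fits the count was 0, and it was 0 under each other setting. The members' median log2 difference moved from 0.20 to -0.05 with no centring (all genes -0.23), to -0.30 with quantile normalization (all genes -0.03) and to -0.21 with no centring without IP 1 and Input 3 (all genes -0.33), and ran from 0.07 to 0.27 with 1 library left out. The Ldha to Ldhb difference was -0.55 under quantile normalization (exact permutation p = 0.2 with all libraries), where the groups were no longer fully separated. Over its settings exact p ran from 0.1 to 0.333. It cannot go below 0.1 with 3 against 3 libraries, and a sample left out leaves a group of 2, so no setting could pass the threshold. With the replicate number as a block limma called 0 genes and the ratio difference was -0.91 (exact p = 0.25). Same-numbered libraries deviated with r of -0.10, 0.25 and -0.17 for replicates 1, 2 and 3, and differently numbered ones with r from -0.25 to 0.19. With 3 libraries per group such values cannot decide whether the numbers mark pairs. The labels do not say whether a number marks a shared pool, and the libraries were not treated as pairs.

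Signs changed as follows. Over fits that leave out libraries Pgk1 ran from -0.18 to 0.37, Slc2a1 from -0.33 to 0.92, G6pdx from -0.73 to 0.15 and Ugp2 from -0.89 to 0.17. With no centring Aldoa was -0.15, Pgk1 -0.07, Pkm -0.03, Tpi1 -0.19, Mdh1 -0.04, Pdhx -0.003 and Mpc2 -0.004. Under quantile normalization Aldoa was -1.38, Gapdh -0.21, Pkm -0.40, Tpi1 -0.46, Eno2 -0.09, Ldhb -0.05 and Mdh1 -0.41. Without Input 3 Aldoa was -0.04, Pgk1 -0.08 and Tpi1 -0.11, without IP 1 Tpi1 was -0.07 and G6pdx 0.11, and without IP 2 Slc2a1 was -0.33. Without IP 1 and Input 3 Aldoa was -0.05, Pgk1 -0.18, Tpi1 -0.24, G6pdx 0.15 and Ugp2 0.17. Centred on the 1000 highest genes Aldoa was -0.005 and Tpi1 -0.04. With no centring and without IP 1 and Input 3 Aldoa was -0.33, Gapdh -0.10, Pgk1 -0.47, Pkm -0.09, Tpi1 -0.53, Ldhb -0.03, Mdh1 -0.18, Pgls -0.04 and Fh1 -0.10, and Tpi1, Ldha, Bpgm, Taldo1, Hprt and Gusb were called lower. The cause was not tested. The depth behind each value is unknown.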
